A study of Arabidopsis thaliana with 48 samples.

Results

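Among 3 Arabidopsis genotypes, *met1-7*, *elp2-5* and Col-0, 115 genes were selected by their expression values, of 32833 genes named by a locus tag. A gene was a member where, in leaves or in roots, no Col-0 library exceeded 0.2 FPKM (a fragment count scaled for transcript length and library size) and no *met1-7* library fell below 0.5 FPKM. *FWA*, *SDC*, *QQS*, AT3G01345 and AT2G03965 were left out by name, and 2 of these met the rule. The rule was met by 84 genes in leaves and by 95 in roots, of which 64 met it in both organs, 20 in leaves only and 31 in roots only. The absence of these transcripts from Col-0 and their presence in *met1-7* in the organ that chose them is therefore how they were found, and is described here with no test.

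The samples were leaves and roots dissected from 11-day-old seedlings grown on the International Space Station (FT) or in a ground control chamber at Kennedy Space Center (GC), both in Veggie hardware under constant light. The *met1-7* line carries a mutation of *MET1*, the *elp2-5* line carries a mutation of *ELP2*, both in the Col-0 background, and Col-0 is the wild type. Combining genotype, organ and environment gave 12 groups with 4 replicates each, 48 libraries in all. A replicate joined RNA of plants from a pair of plates, except that 1 *met1-7* FT replicate came from a single plate. The ground control followed with a delay that the study's methods and the sample labels state differently.

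MET1 is the maintenance methyltransferase that copies CG methylation onto the new DNA strand after replication. Plant genomes use DNA methylation to keep transposable elements silent, and some genes that carry transposon sequence or repeats near their start are held silent in the same way. ELP2 is a subunit of Elongator, a complex that acts in transcription elongation and in tRNA modification. *MET1* transcript was measured at a mean of 13.0 ± 1.64 FPKM in *met1-7* leaves and 13.7 ± 0.722 FPKM in Col-0 leaves, and at 14.9 ± 3.03 FPKM in *met1-7* roots and 18.8 ± 1.08 FPKM in Col-0 roots (SD, n = 8 each), so its level did not by itself set the mutant apart. *ELP2* transcript was lower in the mutant, at 3.63 ± 0.262 FPKM in *elp2-5* leaves and 8.08 ± 0.537 FPKM in Col-0 leaves, and at 5.39 ± 0.486 FPKM in *elp2-5* roots and 12.9 ± 1.30 FPKM in Col-0 roots (SD, n = 8 each). Organ markers followed the labels, with *RBCS1A*, the Rubisco small subunit, at 14179 FPKM or more in each leaf library and 312.6 FPKM or less in each root library, and *CASP1*, of the root Casparian strip, at 2.19 FPKM or less in leaves and 167 FPKM or more in roots.

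Start regions of 4 members are given first, because CG is the site at which MET1 maintains methylation. Each runs from 250 bases before to 50 bases after the annotated start, 5′ to 3′, from RefSeq TAIR10.1, with every CG in capitals. AT5G03090 had the highest mean level in *met1-7* leaves, AT1G23915 had the highest mean in *met1-7* roots among members chosen in roots, AT5G29560 was measured in leaves and near 0 in roots, and AT3G23955 was measured in roots and near 0 in leaves. The pair that differed between organs was chosen after its values were seen.
AT5G03090 (Mto 1 responding down protein, chr5:725031-725330, plus strand): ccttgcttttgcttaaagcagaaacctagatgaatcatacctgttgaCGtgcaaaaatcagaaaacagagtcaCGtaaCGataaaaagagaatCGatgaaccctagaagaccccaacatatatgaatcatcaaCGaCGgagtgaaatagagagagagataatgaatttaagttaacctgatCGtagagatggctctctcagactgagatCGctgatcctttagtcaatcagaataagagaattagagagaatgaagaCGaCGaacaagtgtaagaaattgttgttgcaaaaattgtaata
AT1G23915 (uncharacterized protein, chr1:8457409-8457708, plus strand): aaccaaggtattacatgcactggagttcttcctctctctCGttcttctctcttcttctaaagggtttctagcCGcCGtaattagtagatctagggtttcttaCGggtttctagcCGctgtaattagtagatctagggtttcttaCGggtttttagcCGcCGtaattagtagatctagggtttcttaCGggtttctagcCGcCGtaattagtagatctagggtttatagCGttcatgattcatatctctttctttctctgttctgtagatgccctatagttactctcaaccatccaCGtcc
AT5G29560 (caleosin-related protein, chr5:11191918-11192217, minus strand): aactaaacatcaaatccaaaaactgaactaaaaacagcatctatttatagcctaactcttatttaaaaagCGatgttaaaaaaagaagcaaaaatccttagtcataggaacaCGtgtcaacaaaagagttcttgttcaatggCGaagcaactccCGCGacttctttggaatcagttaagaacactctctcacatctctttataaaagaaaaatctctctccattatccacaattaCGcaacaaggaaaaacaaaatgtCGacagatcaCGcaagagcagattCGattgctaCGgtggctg
AT3G23955 (F-box protein, chr3:8657390-8657689, minus strand): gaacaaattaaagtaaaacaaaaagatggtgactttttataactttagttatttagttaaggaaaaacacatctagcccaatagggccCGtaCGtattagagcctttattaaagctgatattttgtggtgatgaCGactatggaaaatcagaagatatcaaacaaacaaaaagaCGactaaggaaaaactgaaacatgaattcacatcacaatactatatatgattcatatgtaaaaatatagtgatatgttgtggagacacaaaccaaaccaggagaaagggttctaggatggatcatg
These windows held 10, 13, 10 and 4 CG sites in that order. The AT1G23915 window also held a direct repeat of 49 bases, the longest among the members.

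Over all 115 members the window held a median of 9 CG sites (interquartile range 6 to 14), against 6 (4 to 9) over the 32548 genes with a nuclear locus in the same annotation. The letters TATAAA, the core of the TATA box, were found on either strand in 38 member windows (33.0%), against 50.6% of all windows. A direct repeat of 20 bases or more lay in 8 member windows (6.96%), against 1.82% of all windows. These are matches of letters, and no methylation was measured in them here.

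The members lay in gene-poor surroundings. The median number of protein-coding genes within 250 kb on each side was 71 for members (interquartile range 30 to 113) and 135 for all genes (122 to 144). An annotated pseudogene lay within 5 kb of 66 members (57.4%), against 10.9% of all genes. All 5 chromosomes held members, from 17 on chromosome 2 to 30 on chromosome 5. In 10 cases a pair of members lay within 10 kb of each other, and 4 of these pairs overlapped on opposite strands, so that their reads were not certain to belong to one or the other.

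By annotation, 91 members were protein coding, 18 were long non-coding RNAs, 5 were miRNA precursors and 1 was another non-coding RNA. For 60 members the annotation gave no more than an uncharacterized protein or other RNA. The product families below were picked with the products of the members in view, so their shares are described with no test. Among the named products, transposases and retrotransposon proteins, the enzymes that mobile elements encode, made up 8 members (6.96%), against 0.206% of all genes. Ulp1 proteases, a family of SUMO-cleaving enzymes that some plant transposons have captured, gave 4 members of the 7 in the annotation, and proteins with the DUF601 domain gave 3 of 3. There were also 6 members related to beta-galactosidases, enzymes that remove galactose from cell-wall and other glycans, 6 myosin heavy chain-like proteins and 4 zinc-binding or GRF zinc finger proteins.

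In *met1-7*, the members that met the rule in leaves had mean levels of 0.838 to 185 FPKM with a median of 7.20 FPKM, and 32 of the 84 averaged 10 FPKM or more. In roots the range was 1.13 to 107 FPKM with a median of 8.27 FPKM, and 42 of the 95 averaged 10 FPKM or more. A library of *met1-7* had 107 to 112 members at 0.5 FPKM or more in leaves and 105 to 110 in roots. The corresponding numbers were 2 to 5 in *elp2-5* leaves and 0 to 3 in Col-0 leaves, and 1 to 5 in *elp2-5* roots and 1 to 3 in Col-0 roots. The plot of members per library shows this separation, which the rule itself fixed in part. These are whole organs, so more cells with a transcript and more transcript per cell cannot be told apart.

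**Figure D1:**
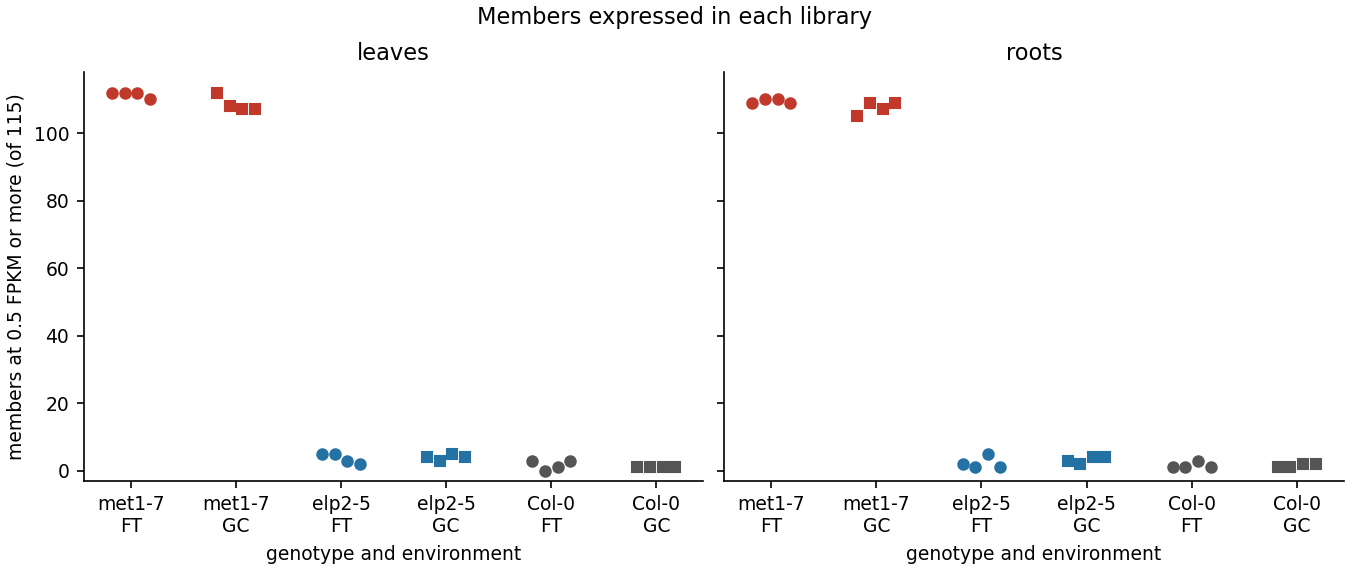
Number of the 115 members at 0.5 FPKM or more in each library, in leaves and in roots, for 3 genotypes in FT (circles) and GC (squares). Each point is 1 library, and the *met1-7* libraries sit between 105 and 112 members while no *elp2-5* or Col-0 library exceeds 5.

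The members were a small share of the genes silent in Col-0. In leaves 10167 locus tags had no Col-0 library above 0.2 FPKM, and the 84 members made up 0.826% of them. In roots the number was 9217, and the 95 members made up 1.03%. With *elp2-5* in place of *met1-7*, the rule was met by 10 genes in leaves and 7 in roots, and 0 of them were members.

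Just inside the Col-0 limit in leaves were AT1G20400 and AT2G04655, with a highest Col-0 library of 0.20 FPKM each, and just outside were AT3G44265 at 0.21 FPKM and AT4G29200 at 0.22 FPKM. In roots AT5G41660 at 0.20 FPKM and AT1G23915 at 0.19 FPKM were inside, and AT1G50350 at 0.22 FPKM and AT3G44265 at 0.23 FPKM were outside. The lowest *met1-7* library in leaves was 0.59 FPKM for AT2G15420 and 0.63 FPKM for AT4G03830, both inside, and 0.49 FPKM for AT1G06883 and 0.47 FPKM for AT1G50350, both outside. In roots it was 0.56 FPKM for AT4G04775 and 0.59 FPKM for AT5G39770, both inside, and 0.49 FPKM for AT2G24735 and 0.48 FPKM for AT2G06420, both outside. AT4G29200 and AT1G06883 were members through roots.

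The highest levels in both organs belonged to genes of little known function. AT5G03090 is annotated as Mto 1 responding down, a name that refers to a methionine over-accumulating mutant. It was at 181, 265, 172 and 192 FPKM in *met1-7* FT leaves and at 169, 162, 163 and 177 FPKM in *met1-7* GC leaves, and was listed at 0 in all 8 Col-0 leaf libraries. In *met1-7* roots it ranged over 117 to 167 FPKM with a median of 129 FPKM, against 0 in 7 Col-0 root libraries and 1.69 FPKM in the other. That single Col-0 library kept AT5G03090 from meeting the rule in roots.

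AT1G23915, an uncharacterized protein whose start region carries the long direct repeat shown above, had 84.6, 95.6, 71.9 and 60.4 FPKM in *met1-7* FT leaves and 64.3, 72.0, 70.1 and 67.2 FPKM in *met1-7* GC leaves. Its highest Col-0 leaf library was 0.10 FPKM. The *met1-7* root libraries had 116, 132, 119 and 98.1 FPKM in FT and 92.9, 127, 81.6 and 90.0 FPKM in GC, with no Col-0 root library above 0.19 FPKM. FT and GC overlapped in both organs. AT1G36085, a mutator-like transposase that would move DNA elements by cutting and pasting, had a median of 48.8 FPKM (35.2 to 65.1) in *met1-7* leaves and 92.7 FPKM (69.6 to 100.0) in *met1-7* roots, and no Col-0 library exceeded 0.10 FPKM. Both genes have transcripts nearly identical to other annotated loci, so their levels may include reads of those copies.

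The other members with the highest means among those found in both organs, besides the *MIR854* precursors below, were a long non-coding RNA, a beta-galactosidase-related gene and proteins of unknown function. AT2G04735, the non-coding RNA, ranged over 37.8 to 101 FPKM in *met1-7* leaves and 28.5 to 102 FPKM in *met1-7* roots. AT5G01080, the beta-galactosidase-related gene, ranged over 39.6 to 69.1 FPKM in *met1-7* leaves and 22.6 to 50.01 FPKM in *met1-7* roots, and has a near-identical copy. AT5G41660, AT5G34869 and AT5G29050 had median levels of 30.1, 35.9 and 32.7 FPKM in *met1-7* leaves and of 53.8, 36.5 and 39.8 FPKM in *met1-7* roots. No Col-0 library of these 5 genes exceeded 0.20 FPKM in either organ. Among members chosen in roots only, AT1G47265, an uncharacterized protein, ranged over 30.4 to 56.4 FPKM in *met1-7* roots and 18.4 to 29.5 FPKM in *met1-7* leaves, with up to 0.28 FPKM in Col-0 leaves. AT4G05275, a non-coding RNA, ranged over 17.6 to 56.1 FPKM in *met1-7* roots and 16.1 to 70.6 FPKM in *met1-7* leaves, and 1 Col-0 leaf library at 10.4 FPKM kept it from meeting the rule there.

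Within the families, levels were spread widely. The 8 transposase and retrotransposon members averaged 1.07 to 49.3 FPKM in *met1-7* leaves and 2.51 to 89.4 FPKM in *met1-7* roots, with AT3G30370 lowest and AT1G36085 highest in both organs. The 4 Ulp1 proteases averaged 1.39 to 23.6 FPKM in leaves and 3.74 to 32.2 FPKM in roots, with AT4G08430 lowest and AT5G45570 highest. The 6 beta-galactosidase-related members averaged 2.42 to 53.9 FPKM in leaves and 3.2 to 34.1 FPKM in roots. The 6 myosin heavy chain-like members averaged 0.943 to 7.38 FPKM in leaves and 0.274 to 26.6 FPKM in roots, and the 3 DUF601 members averaged 0.838 to 2.68 FPKM in leaves and 0.710 to 5.32 FPKM in roots.

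Members annotated as transcription factors or repressors included *OFP9*, AT3G54730, *NAC077*, its neighbour AT5G04395 and *SRS8*. *OFP9* (AT4G04030), an ovate family protein of a group of transcriptional repressors, had 18.7, 19.0, 17.8 and 7.14 FPKM in *met1-7* FT leaves and 15.0, 15.4, 12.1 and 10.9 FPKM in *met1-7* GC leaves, against at most 0.46 FPKM in Col-0 leaves. In *met1-7* roots it ranged over 15.0 to 30.5 FPKM, against at most 0.06 FPKM in Col-0 roots. It met the rule in roots only, since 1 Col-0 leaf library lay above the limit. *NAC077* (AT5G04400), of the plant-specific NAC family, ranged over 1.08 to 17.3 FPKM in *met1-7* leaves and 0.80 to 20.1 FPKM in *met1-7* roots. AT5G04395, a NAC transcription factor-like protein that lies 125 bp from it, had 0.15 to 5.88 FPKM in *met1-7* leaves and 0.94 to 5.74 FPKM in *met1-7* roots. *SRS8* (AT5G33210), of the SHI-related family, was low, at 0.64 to 1.75 FPKM in *met1-7* leaves and 1.49 to 3.54 FPKM in *met1-7* roots. AT3G54730, annotated like *OFP9* as a transcription repressor, ranged over 8.76 to 27.0 FPKM in *met1-7* leaves and 8.56 to 38.0 FPKM in *met1-7* roots, with up to 0.88 FPKM in Col-0 leaves.

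The 5 precursors *MIR854a* to *MIR854e* carry 1 mature miRNA sequence, which is shown because it makes them a single family by seed. miR854 is known in Arabidopsis as a miRNA that lies within Athila retrotransposons. The seed, bases 2 to 8, is in capitals, and the sequence is from RefSeq TAIR10.1.
miR854, identical in a, b, c, d and e: gAUGAGGAuagggaggaggag
The annotated precursors are 221 bases long. Those of b, d and e were identical, and the others differed from them and from each other at 3 to 6 positions. Each overlaps another annotated locus, and near-identical transcripts occur at further loci, so reads could not be assigned to 1 precursor, and *MIR854b*, *MIR854d* and *MIR854e* had the same value in every library. The libraries were made from poly(A) RNA, which does not measure the mature miRNA.

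The *MIR854b* precursor was at 69.7, 220, 78.8 and 50.1 FPKM in *met1-7* FT leaves and at 136, 107, 54.0 and 67.7 FPKM in *met1-7* GC leaves. The *met1-7* root libraries were at 13.3, 15.7, 8.71 and 3.07 FPKM in FT and 7.32, 2.56, 8.24 and 7.21 FPKM in GC. All 16 Col-0 and all 16 *elp2-5* libraries were listed at 0. The other precursors followed the same pattern, with means of 98.6 FPKM for *MIR854a* and 110 FPKM for *MIR854c* in *met1-7* leaves and of 9.73 and 8.89 FPKM in *met1-7* roots. *MIR854a* and *MIR854c* were each listed at 0 in 2 *met1-7* root libraries, and so met the rule in leaves only.

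Most members had comparable levels in both organs of *met1-7*, and a few did not. The ratio of the root mean to the leaf mean lay between 0.5 and 2 for 81 of the 115 members, was above 5 for 4 and below 0.2 for 9. Roots had the higher mean for 77 members. No share over all genes stands beside this count, which is not read as a trait of the members. For the 64 members that met the rule in both organs the median ratio was 1.34 (0.0844 to 4.54). Leaf and root values stand in separate tables, and levels are set side by side across them with no test.

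**Figure D2:**
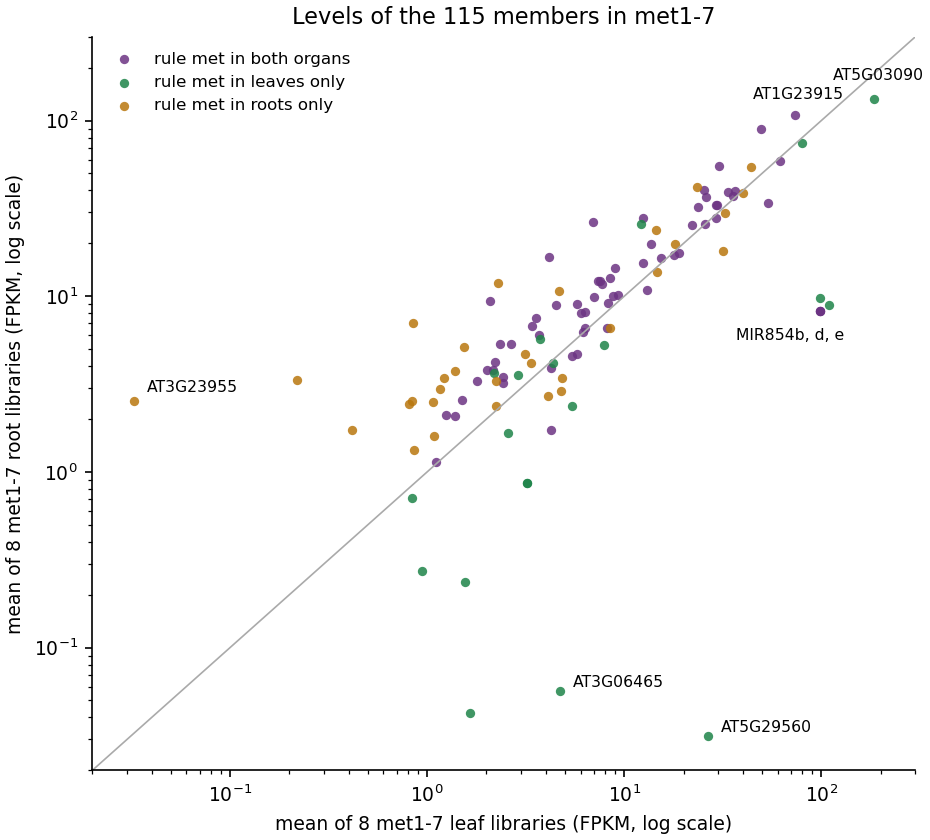
Mean FPKM of each of the 115 members over 8 *met1-7* leaf libraries (x axis) and 8 *met1-7* root libraries (y axis), both on log scales, coloured by the organ in which the rule was met, with equal levels on the grey line. Most points lie near the line, the *MIR854* precursors and AT5G29560 lie below it, and AT3G23955 lies far above it.

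AT5G29560 was the clearest leaf-confined member. It is annotated as a caleosin-related protein, and caleosins are calcium-binding proteins of oil bodies. It was at 13.2, 33.2, 14.6 and 22.0 FPKM in *met1-7* FT leaves and at 20.7, 22.0, 46.1 and 42.0 FPKM in *met1-7* GC leaves, against at most 0.15 FPKM in Col-0 leaves. In roots no *met1-7* library exceeded 0.07 FPKM, against a highest Col-0 library of 0.19 FPKM, so the groups overlapped there. AT3G06465, a non-coding RNA, ranged over 2.63 to 6.51 FPKM in *met1-7* leaves and was listed at 0 in 7 of 8 *met1-7* root libraries, with 0.45 FPKM in the other. AT1G34440, an uncharacterized protein, ranged over 0.79 to 1.97 FPKM in *met1-7* leaves and reached 0.14 FPKM in *met1-7* roots.

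The reverse was seen for AT3G23955, an F-box protein of the family that selects targets for ubiquitination. It had 2.02, 1.47, 2.29 and 2.63 FPKM in *met1-7* FT roots and 2.94, 3.36, 3.79 and 1.88 FPKM in *met1-7* GC roots, against at most 0.11 FPKM in Col-0 roots. In leaves no *met1-7* or Col-0 library exceeded 0.08 FPKM. AT4G34690, an uncharacterized protein, ranged over 0.99 to 6.11 FPKM in *met1-7* roots and 0 to 0.76 FPKM in *met1-7* leaves. Of the 31 members that met the rule in roots only, 13 missed it in leaves by the Col-0 limit alone, 17 by the *met1-7* limit alone and 1 by both. Of the 20 that met it in leaves only, 6 missed it in roots by the Col-0 limit alone, 13 by the *met1-7* limit alone and 1 by both.

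In the organ that did not choose them, the members found in 1 organ only gave values by which they had not been chosen, although each had by definition missed the rule there. Of the 20 members that met the rule in leaves only, 11 had every *met1-7* root library above every Col-0 root library, against 0.978% of all locus tags. Of the 31 that met it in roots only, 23 had every *met1-7* leaf library above every Col-0 leaf library, against 1.11% of all locus tags. The exceptions included AT5G29560, AT3G06465 and AT3G23955. With the 64 members found in both organs, whose separation the rule itself fixed, the counts were 75 of 84 in roots and 87 of 95 in leaves.

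Differential expression was tested with limma on log2(FPKM + 0.5), over 19877 genes in leaves and 21000 in roots that had at least 1 FPKM in at least 4 of the organ's 24 libraries. A gene was called where the adjusted p was under 0.05, the change at least 2-fold and at least 1 library of both groups above 0. Members passing the expression filter numbered 106 in leaves and 107 in roots, almost all of them through *met1-7*, so that those tested had to differ from Col-0 and nothing is read from their share of calls. Of the 20 members found in leaves only, 12 were tested in roots, and 6 were called higher in *met1-7* FT roots and 7 in *met1-7* GC roots, beside 0.571% and 0.533% of all genes tested. Of the 31 found in roots only, 24 were tested in leaves, and 11 were called higher in *met1-7* FT leaves and 15 in *met1-7* GC leaves, beside 0.639% and 0.659%. The 7 calls in GC roots were 4 without Col-0 GC replicate 3 or 4. Counting also the 64 members chosen on these same values, 28 and 32 were called in FT and GC roots and 32 and 39 in FT and GC leaves.

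The requirement of a value above 0 in Col-0 set these counts. Without it, 12 and 11 of the members found in leaves only were called in FT and GC roots, beside 1.06% and 0.99% of all genes tested, and 24 and 24 of those found in roots only in FT and GC leaves, beside 1.1% and 1.05%. Those tested passed the expression filter almost all through *met1-7*, so nothing is read from these counts or from the medians that follow. The median log2 difference between *met1-7* and Col-0 over the 12 tested in roots was 3.40 in FT and 2.64 in GC, and over the 24 tested in leaves 2.95 in FT and 2.56 in GC. Over all genes tested it lay between -0.00 and 0.02. Many Col-0 groups stood at 0, where the size of a fitted difference depends on the added 0.5 FPKM.

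AT3G27473 illustrates a member that was silent in 1 organ alone. It encodes a Cys/His-rich C1 domain protein. In leaves it had 2.11, 2.54, 1.63 and 2.92 FPKM in *met1-7* FT and 2.47, 1.21, 2.56 and 2.11 FPKM in *met1-7* GC, against 0 to 0.13 FPKM in Col-0. In roots Col-0 itself expressed it, at 1.03 to 1.75 FPKM, and *met1-7* had 2.95 to 4.32 FPKM without overlap. The root difference was 1.18 on the log2 scale in FT (SE 0.12, adjusted p = 4.9e-07) and 1.29 in GC (SE 0.12, adjusted p = 1.1e-07) by limma. In *elp2-5* roots AT3G27473 had 1.44 to 2.1 FPKM in FT, above every Col-0 FT root library, and 1.32 to 1.61 FPKM in GC, overlapping Col-0. The FT difference of 0.42 on the log2 scale was under 2-fold (SE 0.12, adjusted p = 0.0097 by limma).

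Few members were called between flight and ground control. In *met1-7* leaves, 2 of the 106 members tested were called between FT and GC, 1 in each direction, beside 0.352% of all genes tested. With only 2 calls, no difference between these shares is read. In *met1-7* roots 0 were called by limma, beside 0.0571% of all genes tested, and 18 of the 107 members tested (16.8%) had an unadjusted p under 0.05, against 18.1% of all genes tested. In leaves 18 of 106 (17.0%) had an unadjusted p under 0.05, against 28.5% of all genes tested. Every FT library lay above every GC library for 7 members in leaves and 2 in roots, beside 9.39% and 5.5% of all locus tags, and below for 2 members in leaves and 0 in roots, beside 2.88% and 2.46%.

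AT1G54420, an uncharacterized protein, was lower in flight leaves. It had 7.84, 3.09, 1.44 and 7.55 FPKM in *met1-7* FT leaves and 12.5, 11.7, 14.9 and 8.88 FPKM in *met1-7* GC leaves, and the groups did not overlap. The log2 change was -1.40 (SE 0.30, adjusted p = 0.0045). The library at 1.44 FPKM, FT replicate 3, decided the size, since the change was -0.98 without it and no longer reached 2-fold. In *met1-7* roots AT1G54420 had 13.9, 15.7, 15.1 and 6.06 FPKM in FT and 9.21, 12.1, 15.9 and 13.5 FPKM in GC, with a log2 change of -0.06 (SE 0.25, adjusted p = 0.93). All Col-0 libraries were listed at 0.

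AT1G36240, which encodes a ribosomal protein of the L7Ae/L30e family, was higher in flight leaves. It had 6.26, 12.5, 5.88 and 2.84 FPKM in *met1-7* FT leaves and 2.82, 6.25, 0.92 and 0 FPKM in *met1-7* GC leaves, and the groups overlapped. The log2 change was 1.72 (SE 0.49, adjusted p = 0.027), and the call was lost on leaving out any of 5 libraries (FT replicates 1, 2 and 3, and GC replicates 3 and 4), with an adjusted p of up to 0.096, and with a pseudocount of 0.1 FPKM (2.39, adjusted p = 0.052). Root levels in *met1-7* ranged over 3.86 to 17.4 FPKM in FT and 5.43 to 17.9 FPKM in GC. The difference between leaves and roots in these changes was not tested for either gene. Both calls were also lost when only the 8 libraries compared were fitted, with adjusted p of 0.11 for AT1G54420 and 0.23 for AT1G36240.

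With a change of less than 2-fold, a further 6 members had an adjusted p under 0.05 in leaves, which makes 8 of the 106 tested, beside 12.9% of all genes tested. AT3G31350 (log2 change 0.87), AT3G30820 (0.47), AT3G25719 (0.47) and AT3G44070 (0.35) were higher in FT, and AT1G32000 (-0.88) and AT5G04815 (-0.77) were lower. AT3G25719, an uncharacterized protein among the highest in leaves, had 94.0, 78.3, 113 and 84.6 FPKM in *met1-7* FT leaves and 70.6, 49, 59.2 and 91.6 FPKM in *met1-7* GC leaves. The median log2 change over members tested was 0.14 in leaves and 0.15 in roots, against 0.07 and 0.04 over all genes tested. Under quantile normalization the member median in leaves was 0.03, against -0.00 over all genes. In roots the member median was 0.08 without FT replicate 2 and 0.08 without GC replicate 3 of *met1-7*.

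**Figure D3:**
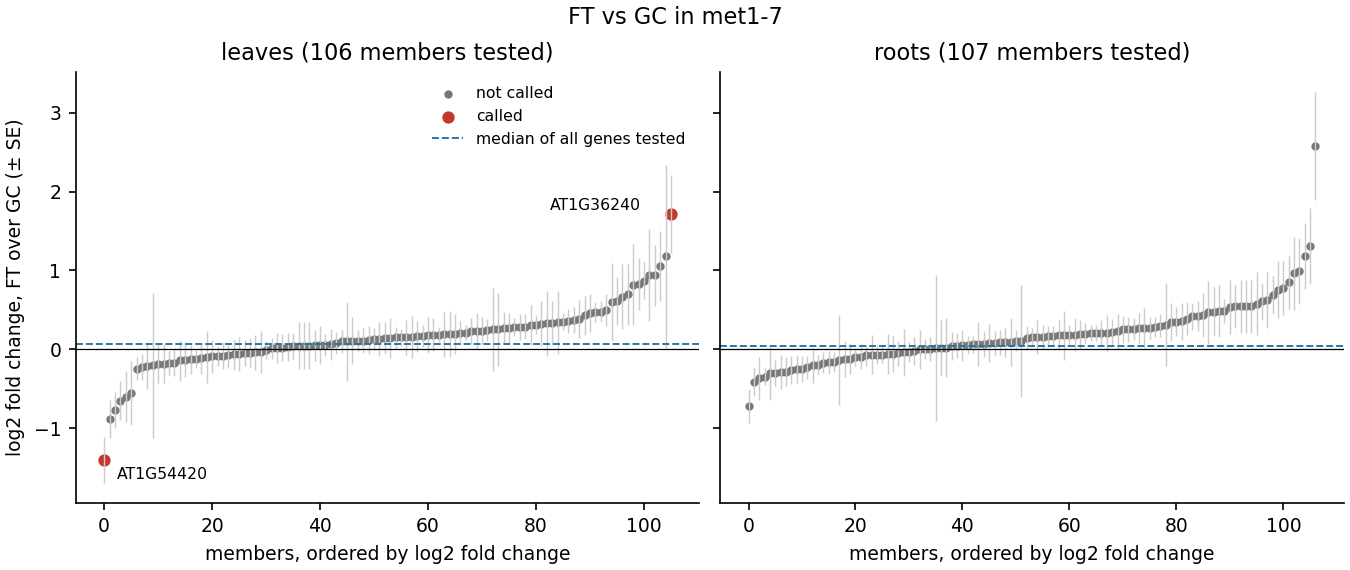
Log2 fold change of FT over GC in *met1-7* for 106 members tested in leaves and 107 in roots, in rising order, with the standard error as bars, called members in red and the median of all genes tested as a dashed line. AT1G54420 at -1.40 and AT1G36240 at 1.72 are the called members, and the highest root point, at 2.58, is *MIR854c* with an adjusted p of 0.064.

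In *elp2-5* the members stayed low. The highest of 8 *elp2-5* libraries was at most 0.2 FPKM for 89 of the 115 members in leaves and 100 in roots, and all 8 were listed at 0 for 43 and 59. It reached 0.5 FPKM for 14 members in leaves and 7 in roots. The lowest *met1-7* library lay above the highest *elp2-5* library for 108 members in leaves and 106 in roots. These counts rest in part on the *met1-7* minimum that the rule set, and such a separation was found for 4.48% and 6.21% of all locus tags. Between FT and GC in *elp2-5*, limma called 0 members in leaves and 0 in roots, beside 0.0402% and 0.186% of all genes tested, and 2 and 1 members had an unadjusted p under 0.05, beside 14.5% and 24.6%. With so many members at 0 in *elp2-5* few calls were possible, and nothing is read from these shares.

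AT5G03090 reached the highest *elp2-5* level. It had 2.33, 4.47, 0 and 1.74 FPKM in *elp2-5* FT leaves and 4.5, 1.57, 15.8 and 5.69 FPKM in *elp2-5* GC leaves, where all Col-0 libraries were listed at 0. In roots 2 *elp2-5* libraries had 1.45 and 3.21 FPKM and the other 6 were listed at 0. AT2G05695 reached 1.74 FPKM in *elp2-5* leaves and 2.32 FPKM in *elp2-5* roots, with medians of 0.425 and 0 FPKM, and Col-0 was listed at 0. Both genes were thus present in some *elp2-5* libraries and not in others. AT4G05275 had 9.16 FPKM in *elp2-5* GC leaf replicate 2 and was listed at 0 in every other *elp2-5* library. Col-0 GC leaf replicate 1 had 10.4 FPKM of it.

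Between *elp2-5* and Col-0, 1 member found in roots only was called in GC leaves and 1 found in leaves only in GC roots, both higher, beside 4.19% and 1.78% of all genes tested. In FT limma called 0 in leaves and 0 in roots, beside 4.49% and 1.86%, and 1 of the 24 and 1 of the 12 members tested had an unadjusted p under 0.05, beside 56.2% and 45.3%. Since most of these members stood near 0 in both genotypes, nothing is read from these shares. The other 64 members had Col-0 values fixed by the rule in both organs. AT4G29200, a beta-galactosidase-related gene, had 0.62, 0.63, 0.63 and 0.44 FPKM in *elp2-5* FT leaves and 0.96, 0.50, 1.91 and 1.19 FPKM in *elp2-5* GC leaves, against 0.07, 0.08, 0 and 0.22 FPKM in Col-0 FT leaves and 0.10, 0, 0.03 and 0.03 FPKM in Col-0 GC leaves. The groups did not overlap in either environment. The log2 difference was 1.54 in GC (SE 0.24, adjusted p = 2.3e-05) and 0.87 in FT (SE 0.24, adjusted p = 0.0046), which is under 2-fold. Its *met1-7* leaf level was 16 to 45.5 FPKM. In roots, where the rule had limited Col-0, the *elp2-5* libraries had 0.06 to 0.31 FPKM and every Col-0 library was listed at 0.

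AT1G06963, a non-coding RNA chosen in leaves, had 0.52, 0.28, 1.5 and 0.19 FPKM in *elp2-5* FT roots and 2.42, 0.72, 0.54 and 0.98 FPKM in *elp2-5* GC roots. Col-0 had 0.40, 0.13, 0.08 and 0.14 FPKM in FT roots and 0, 0, 0 and 0.40 FPKM in GC roots, so the groups overlapped in FT and not in GC. The log2 difference was 1.40 in GC (SE 0.30, adjusted p = 0.0010) and 0.60 in FT (SE 0.30, adjusted p = 0.13), and the GC call was lost with a pseudocount of 1 FPKM, where the difference was 0.92. It was also lost without Col-0 GC replicate 4, which left Col-0 at 0. *met1-7* roots had 4.82 to 6.84 FPKM. The other members with the highest *elp2-5* minima, AT1G20400, AT2G07213 and AT3G54730, reached 0.40, 0.75 and 0.79 FPKM in *elp2-5* leaves, against 0.20, 0.44 and 0.88 FPKM in Col-0 leaves.

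**Figure D4:**
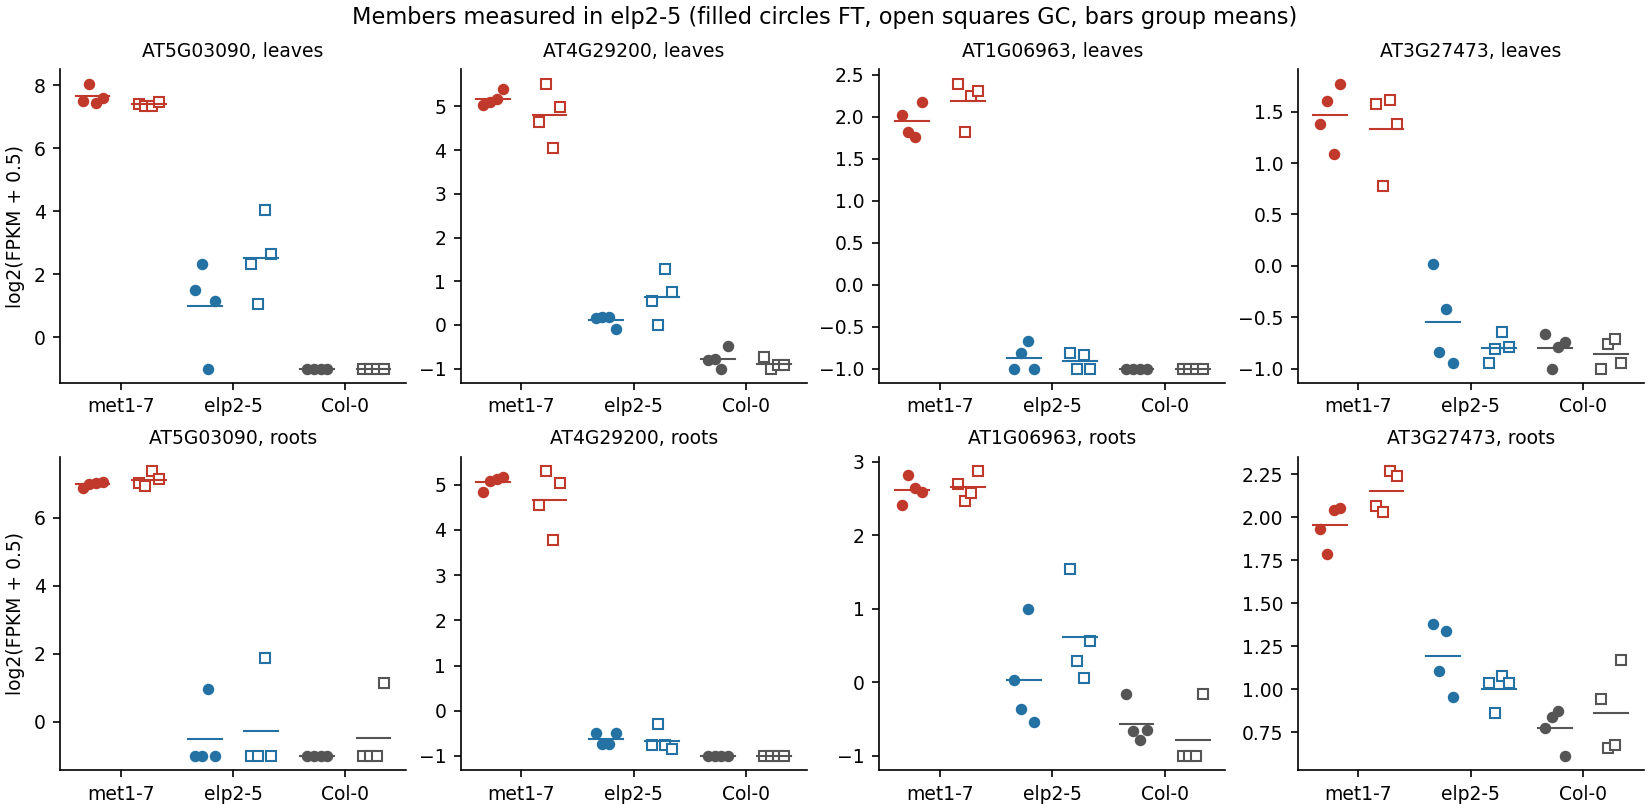
Levels of 4 members as log2(FPKM + 0.5) in *met1-7*, *elp2-5* and Col-0, leaves in the upper row and roots in the lower row, 1 point per library with FT as filled circles, GC as open squares and a bar at each group mean, where -1 is a value of 0. The *elp2-5* libraries of AT4G29200 lie above Col-0 in leaves and, at 0.06 to 0.31 FPKM against 0, in roots. AT3G27473 is expressed in Col-0 roots.

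Replicates of *met1-7* differed more for some members than for others. The highest over the lowest of the 8 *met1-7* libraries had a median of 2.34 in leaves and 2.34 in roots over the members chosen in each organ, and exceeded 5 for 8 of 84 and 18 of 95. *NAC077* had 9.99, 17.3, 5.58 and 1.15 FPKM in *met1-7* FT leaves and 5.55, 8.26, 1.08 and 1.79 FPKM in *met1-7* GC leaves. In *met1-7* roots it had 5.08, 20.1, 7.34 and 3.73 FPKM in FT and 6.97, 5.19, 0.80 and 3.90 FPKM in GC, and its root ratio of 25.1 was the largest of all. In both organs FT replicate 2 was the highest library and GC replicate 3 the lowest.

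For some other members too, a replicate number stood at an end in both organs, though not always the same number. Over all 115 members the median level was also highest in FT replicate 2, at 8.38 FPKM in leaves and 10.7 FPKM in roots. The other *met1-7* libraries had medians of 4.46 to 6.26 FPKM in leaves and 5.85 to 7.12 FPKM in roots. AT1G20400, a DUF1204 protein, had 8.21, 21.0, 8.46 and 3.57 FPKM in *met1-7* FT leaves and 7.73, 10.7, 1.86 and 4.03 FPKM in *met1-7* GC leaves. The *met1-7* roots had 6.10, 16.3, 6.34 and 4.94 FPKM in FT and 4.27, 9.89, 1.52 and 3.43 FPKM in GC, again with FT replicate 2 highest and GC replicate 3 lowest. AT1G48285, a GRF zinc finger protein with a near-identical copy, was highest in FT replicate 2 in both organs, at 12.2 FPKM in leaves and 9.46 FPKM in roots. AT3G05395, a non-coding RNA that overlaps other annotated loci, was listed at 0 in GC replicate 2 of leaves and was lowest, at 10.3 FPKM, in GC replicate 2 of roots, against up to 92.0 and 108 FPKM in the other libraries.

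This likeness was looked at after the values were seen, over the 8 *met1-7* replicates that share an environment and a number between leaves and roots, as log2(FPKM + 0.5). Leaves and roots were dissected from the same seedlings, and that equal numbers mark the same plants is not stated in the sources used here. Of the members, 100 averaged at least 1 FPKM in both organs. Their median Pearson r between leaf and root values was 0.55, with 88 above 0, against 0.19 over all 17524 such genes. After centring on the mean of each environment the medians were 0.56 and 0.13, and without FT replicate 2 the member median was 0.42. Over genes outside the set whose replicates were at least as spread as the median member it was 0.21. For all genes in *elp2-5* and in Col-0 it was 0.05 and 0.15.

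No single gene passed a correction over all genes. By an exact permutation test (two-sided, Benjamini-Hochberg over 17524 genes) 0 of 100 members had an adjusted p under 0.05, beside 0% of all genes, and 30 had a positive r with an unadjusted p under 0.05, beside 9.29% of all genes. Another 2 had a negative r with an unadjusted p under 0.05, beside 1.87% of all genes, namely AT4G03950 (r = -0.83, exact permutation p = 0.018, adjusted p = 0.35) and AT4G06688 (r = -0.73, exact permutation p = 0.046, adjusted p = 0.44). The 30 include AT1G20400, *NAC077* and AT3G05395, whose values were seen before the comparison, so the 30 are no independent count. The median member was also highest in FT replicate 2 in both organs, so the r values of members are not separate observations. The genes given next were among the 21 members with r above 0.8, so their p-values are those of picked genes. Named members with a low r included AT3G27473 (0.03), AT5G03090 (-0.23), AT1G54420 (-0.28) and *MIR854c* (-0.51). AT4G29200, the highest of the 100, had r = 0.97 (exact permutation p = 0.00012, adjusted p = 0.17) and Spearman's rho = 0.98 (exact permutation p = 0.00040). Its r was 0.91 without the 2 libraries farthest from the leaf median. AT1G20400 and *NAC077*, which prompted the comparison, are described with no test: r was 0.94 and 0.81, rho 0.93 and 0.79, and r without the 2 farthest 0.74 and 0.72. For AT2G07213, a non-coding RNA, r was 0.91 (exact permutation p = 0.0016, adjusted p = 0.24), rho 0.88 (exact permutation p = 0.0072), and r 0.87 without the 2 farthest. Within FT and within GC r was 0.76 and 0.98 for AT4G29200, 0.93 and 0.95 for AT1G20400, 1.00 and 0.94 for AT2G07213 and 0.78 and 0.82 for *NAC077* (n = 4 each, with no test).

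**Figure D5:**
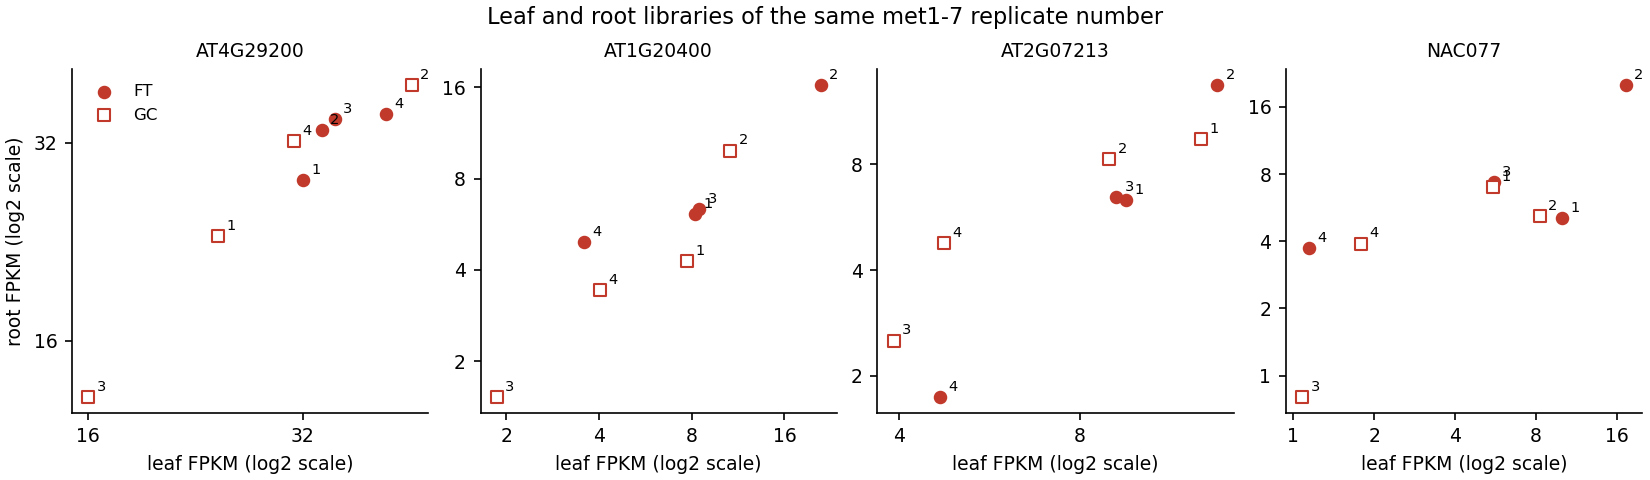
FPKM of 4 members in *met1-7* leaf libraries (x axis) and in the root libraries of the same environment and replicate number (y axis), both on log2 scales, with FT as filled circles, GC as open squares and the replicate number beside each point. The 4 are among the 21 members with r above 0.8. In each panel the points run from lower left to upper right, and GC replicate 3 is the lowest leaf library in each panel.

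Genes that set, read or remove DNA methylation, or that act with it in silencing, were measured beside the members. Of 32 such genes, all tested in both organs, 1 was called between *met1-7* and Col-0 in FT leaves and 1 in FT roots, both lower, beside 1.09% and 0.924% of all genes tested. In GC limma called 0 in leaves and 0 in roots, beside 1.47% and 1.14%. An adjusted p under 0.05 was found for 4 and 2 of the 32 in FT leaves and roots, and 7 and 2 in GC. For an unadjusted p under 0.05 the numbers were 12 and 11 in FT and 12 and 8 in GC. No share over all genes tested stands beside these counts, so nothing is read from them. The called gene was *ROS1*, a DNA glycosylase that removes methylated cytosine. It averaged 11.8 ± 5.70 FPKM in *met1-7* FT leaves and 23.3 ± 1.21 FPKM in Col-0 FT leaves (SD, n = 4 each), with a log2 difference of -1.08 (SE 0.22, adjusted p = 0.0037 by limma). In FT roots it averaged 5.30 ± 2.22 FPKM in *met1-7* and 12.8 ± 2.35 FPKM in Col-0 (SD, n = 4 each), with a log2 difference of -1.26 (SE 0.20, adjusted p = 0.00027 by limma). In GC the log2 difference was -0.63 in leaves (adjusted p = 0.055) and -0.95 in roots (adjusted p = 0.0046), both under 2-fold.

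The median log2 difference over the 32 genes lay between -0.08 and 0.04 in the 4 comparisons, against -0.00 to 0.02 over all genes tested. The leaf call of *ROS1* rested on FT replicate 2 of *met1-7*, without which the difference was -0.76, and it was lost when only the 8 libraries compared were fitted (adjusted p = 0.15 by limma). *IBM1*, a histone demethylase that keeps gene bodies free of non-CG methylation, averaged 4.86 ± 0.682 FPKM in *met1-7* leaves and 8.41 ± 0.437 FPKM in Col-0 leaves (SD, n = 8 each). In roots it was also lower, at 6.16 ± 0.516 FPKM in *met1-7* and 9.96 ± 0.433 FPKM in Col-0 (SD, n = 8 each), without overlap. Its log2 difference was -0.71 in FT leaves (SE 0.08, adjusted p = 5.4e-06 by limma) and -0.77 in GC leaves (SE 0.08, adjusted p = 1.3e-06 by limma), under 2-fold in both. A second list, of 13 imprinted genes known to be expressed from 1 parental allele in the endosperm, held no gene that passed the expression filter in either organ. Among them *AGL28*, a MADS-box gene, reached 0.51 FPKM in *met1-7* leaves and 0.37 FPKM in Col-0 leaves, and 1.39 FPKM in *met1-7* roots and 0.07 FPKM in Col-0 roots. *MPC* ranged over 0.19 to 2.14 FPKM in *met1-7* leaves and 0 to 3.34 FPKM in *met1-7* roots. It reached 0.53 FPKM in Col-0 leaves and 0.41 FPKM in Col-0 roots. None of the genes in either list was a member.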

How the data were processed

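The authors trimmed reads with Trimmomatic, aligned them with STAR to TAIR10 and computed values with RSEM from strand-specific poly(A) libraries. Versions, and whether counting used strand, are not given in the sources used here. The deposited values are FPKM with 2 decimals, for 32833 locus tags and 1144 other identifiers in 48 libraries, and 0 columns were left unused. FPKM carry no counts, so depth is unknown and no interval or detection floor was computed.

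The members, gene lists and tests were chosen with earlier results of these data known. In each organ limma 3.58.1 in R 4.3.3 fitted 6 group means to 24 libraries on log2(FPKM + 0.5), using eBayes with a mean-variance trend, robust to outlying genes, and Benjamini-Hochberg adjustment over all genes tested. P-values are two-sided, and since replicates are pairs of plates they measure the spread between plates. A fold change is on the log2(FPKM + 0.5) scale and understates changes of low genes. Expected counts were not analysed here.

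Positions, windows and sequences came from RefSeq TAIR10.1, in which all 115 members had a locus, whereas the tables hold no coordinates. Near-identical transcripts (at least 95% identity over 80% of the shorter) were found with BLAST 2.17.0 for 28 members, and 27 overlapped another locus. Leaf-root correlations used exact permutations of the 8 replicates. Python 3.11.15 with numpy 2.4.6, pandas 2.3.3 and matplotlib 3.10.9 was used. Named members were the 10 highest found in both organs, the 5 highest of each organ alone, those called between FT and GC, the 6 with the highest *elp2-5* minimum, those with a symbol, the 4 with the widest *met1-7* spread and those nearest the limits. AT3G23955, AT3G06465, AT1G34440, AT4G34690, AT2G05695, AT5G04395, AT4G03950, AT4G06688, *AGL28*, *MPC*, *IBM1* and the 6 members under 2-fold were chosen after their values were seen. Alternatives were pseudocounts of 0.1 and 1 FPKM, no expression filter, median-ratio and quantile scaling, the replicate number as a block, no rule on values above 0, only the 8 libraries compared, other limits for members, and each library left out.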

Additional observations from a re-analysis of the deposited data

Results flagged for a closer look

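In groups of 4 *met1-7* libraries of the named members, 11 of 120 groups held a library far from the other 3 by Dixon's test at the 95% level, where chance gives about 1 in 20. The groups are no fair sample for that rate, since some members were named for their wide spread, *MIR854b*, *MIR854d* and *MIR854e* count as 3 with 1 set of values, and AT5G29560 gave 2 at 0 to 0.07 FPKM. *MIR854b* (AT5G04935), *MIR854d* (AT5G04965) and *MIR854e* (AT5G05005), which share 1 set of values, were at 220.37 FPKM in FT leaf replicate 2, against 50.1 to 78.8 FPKM in the other 3. *MIR854c* (AT5G04985) was at 140.16 FPKM in FT leaf replicate 4, against 87.1 to 92.5 FPKM. The transposase gene AT1G36085 was at 69.55 FPKM in GC root replicate 3, against 92.2 to 95.5 FPKM. *OFP9* (AT4G04030) was at 7.14 FPKM in FT leaf replicate 4, against 17.8 to 19.0 FPKM, and at 27.18 FPKM in FT root replicate 2, against 22.5 to 22.9 FPKM. In FT root replicate 2, AT1G20400 was at 16.31 FPKM, against 4.94 to 6.34 FPKM, and *SRS8* (AT5G33210) was at 3.54 FPKM, against 2.03 to 2.28 FPKM. The caleosin-related gene AT5G29560, near 0 in roots, was at 0.07 FPKM in FT root replicate 3, against 0, and at 0 in GC root replicate 3, against 0.06 FPKM.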

How the results depend on the processing

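The number of members was 69 to 100 in leaves and 79 to 112 in roots under other limits and scalings, and 84 to 93 and 95 to 103 with a library left out. With a library left out, members found in the other organ only that did not overlap were 23 to 25 in leaves and 11 to 13 in roots. Members called between FT and GC in *met1-7* leaves were 1 with a pseudocount of 0.1 FPKM, where the call of AT1G36240 was lost, and 0 with only the 8 libraries compared, and with a library left out ranged over 0 to 6, with 1 without FT replicate 1, 0 without FT replicate 3 and 6 without FT replicate 4. In *met1-7* roots that range was 0 to 1. Without the rule on values above 0, calls between *met1-7* and Col-0 in FT and GC were 24 and 24 (members found in roots only) and 88 and 88 (all chosen in roots) in leaves, and 12 and 11 (found in leaves only) and 76 and 75 (all chosen in leaves) in roots, because Col-0 groups at 0 then count. With that rule and a library left out, all chosen in the other organ gave 28 to 32 in FT leaves, 28 to 39 in GC leaves, 19 to 28 in FT roots and 25 to 32 in GC roots, and those found in the other organ only gave 9 to 11, 10 to 15, 4 to 6 and 4 to 7. Root-chosen members called between *elp2-5* and Col-0 were 3 in FT leaves, 2 of them found in roots only, and 2 in GC leaves with a pseudocount of 0.1 FPKM. Leaf-chosen members called in GC roots, in all and found in leaves only, were 0 with a pseudocount of 1 FPKM and 0 to 1 with a library left out. The cause was not tested. Under quantile normalization the median log2 change of members between FT and GC in *met1-7* leaves was 0.03, and with a library left out 0.02 to 0.19 in leaves and 0.08 to 0.18 in roots. The median leaf-root r of members was 0.42 to 0.61 with a replicate left out. No result reversed. With the replicate number as a block, 0 calls of members changed, with 2 members called between FT and GC in *met1-7* leaves. Correlations of deviations between libraries of the same number lay between -0.16 and 0.14, so the numbers did not pair the samples of a comparison. Values near 0 rest on few fragments, and a gene listed at 0 may be expressed below what these libraries show.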
